A study of Mus musculus with 2 samples.

Results

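Enzymes of the cytochrome P450 (Cyp), UDP-glucuronosyltransferase (Ugt), cytosolic glutathione S-transferase (Gst) and cytosolic sulfotransferase (Sult) families were examined in a map of methylated DNA from mouse chondrocytes. The members were the protein-coding genes whose symbol begins with Cyp, a number and a letter, with Ugt or Sult and a number, or with Gst, a class letter (a, m, p, t, o or z) and a number, in the RefSeq table of GRCm38.p6. There were 162 such genes among 21887 protein-coding genes: 98 Cyp, 22 Ugt, 21 Gst and 21 Sult genes. Both groups were primary chondrocytes of C57BL/6 background taken from knee cartilage on postnatal day 3, and both were exposed at confluence to recombinant human BMP-2 at 100 ng/ml for 24 hours. The groups were Control and Uhrf1 cKO, a conditional knockout of the gene whose product brings the maintenance DNA methyltransferase to newly replicated DNA. The labels used here give neither the Cre driver nor the floxed allele, nor how many animals were combined in a culture.

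Each genotype had 1 library of DNA captured with MBD2, a protein that binds methylated CpG, so nothing here has a replicate check and no difference was tested. The authors deposited 1 list of 35861 regions, each with an excess of Control over cKO tags, called at a p limit of 1e-10. Regions with more cKO signal are not in that list, so only an excess in Control can be seen, and where no region is listed a locus may have been unmethylated in both, methylated in both or too thinly covered. The libraries kept 9782276 (Control) and 15039206 (cKO) tags, which were 44.8% and 76.1% of the tags sequenced. Region tags, folds and false discovery rates (FDR) are the authors' own values. The fold is Control signal at the summit over a local background taken from the cKO library. The FDR is the caller's percentage of regions found when the libraries are swapped. The list holds no expression values, so the chondrocyte label could not be checked against marker genes.

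Cytochrome P450 enzymes are haem proteins that oxidise fatty acids, steroids, vitamins and foreign compounds. Ugt, Gst and Sult enzymes then attach glucuronic acid, glutathione or sulfate, which makes such molecules more soluble. Many of these genes arose by repeated tandem duplication and lie in arrays of similar copies that are mainly expressed in liver, gut and kidney. Others stand alone in the genome and have narrow roles in hormone or vitamin metabolism, among them the control of retinoic acid and vitamin D, both of which act on cartilage. Genes were placed in a tandem cluster when at least 2 members of the same superfamily lay on a chromosome with at most 200 kb between neighbours. This gave 24 clusters with 129 genes, and 33 single genes.

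A region lay in the gene or within 5 kb of it for 46 of the 162 genes (28.4%, 95% Wilson interval 22.0 to 35.8), whereas 47.4% of all protein-coding genes had one. The split between tandem and single genes was wide. Of the 129 tandem-cluster genes, 29 had a region (22.5%, 16.1 to 30.4), against 17 of the 33 single genes (51.5%, 35.2 to 67.5), a difference of 29.0 percentage points (10.9 to 46.2). These intervals cover counting error only and treat genes as independent, which neighbours that share a region are not. The same 1 region served 8 Ugt1a genes, and without the Ugt1a array 21 of 120 tandem genes had a region (17.5%). The single genes were thus close to the background of all protein-coding genes and the tandem genes below it.

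Gene length differed little between the classes, with a median span of 20.3 kb for tandem genes and 21.2 kb for single genes. Weighting all protein-coding genes to the lengths of the members gave 47.8% for the tandem genes and 49.8% for the single genes. In the class of 20 to 50 kb, 10 of 50 tandem genes (20%) and 8 of 13 single genes (61.5%) had a region, with 56.8% of all genes of that length. In the class of 10 to 20 kb, 3 of 31 tandem genes (9.68%) and 6 of 10 single genes (60%) had one, with 45.3% of all genes. Below 10 kb the classes did not stand apart, at 6 of 33 (18.2%) and 1 of 6 (16.7%), with 23.1% of all genes. From 50 to 100 kb, 4 of 9 tandem genes (44.4%) and neither of 2 single genes had one, with 71.8% of all genes. All 6 tandem genes and both single genes over 100 kb had a region, as did 84.9% of all genes of that length, but 5 of those 6 were Ugt1a genes that share 1 region. Without the Ugt1a array 2 of 7 tandem genes of 50 to 100 kb (28.6%) and 2 of 30 of 10 to 20 kb (6.67%) had a region. The tandem genes thus lay furthest below the single genes at 10 to 50 kb, the classes that hold most members.

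**Figure D1:**
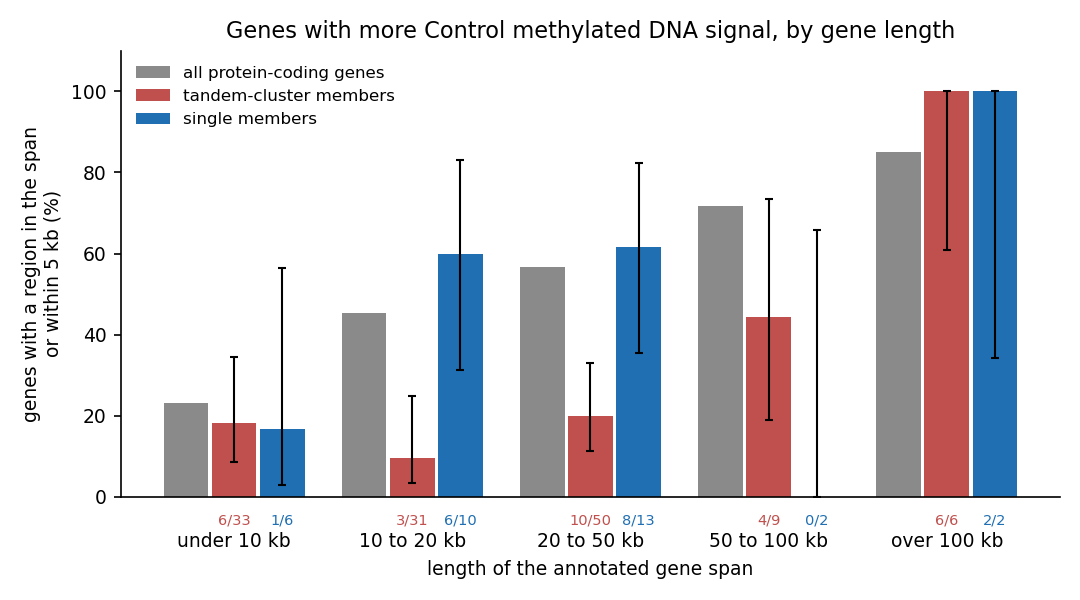
Share of genes (vertical axis, percent) with a region in the annotated span or within 5 kb, by span length (horizontal axis), for all protein-coding genes (grey), tandem-cluster members (red) and single members (blue). Bars of the members carry 95% Wilson intervals and the counts are printed below them. From 10 to 50 kb the red bars are at 9.68% and 20%, below the grey bars, whereas the blue bars are at 60% and 61.5%.

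Counting each region once, the widened spans of the tandem genes held 27 regions in 4.14 Mb, or 6.53 per Mb (exact Poisson interval 4.30 to 9.5). Those of the single genes held the same number in 1.30 Mb, or 20.7 per Mb (13.6 to 30.1). All protein-coding genes together had 19.0 per Mb. Inside the clusters the density was also lower than in the sequence around them. From the first to the last gene of each cluster, widened by 5 kb, there were 61 regions in 7.64 Mb (7.98 per Mb, 6.10 to 10.3), and the 500 kb on each side, with each base counted once and the members left out, held 509 regions in 21.5 Mb (23.7 per Mb, 21.7 to 25.8). The 500 kb on each side of the single genes held 24.1 per Mb. Stretches between the tandem genes held 34 regions, or 9.69 per Mb (6.71 to 13.5). Summed over all clusters, the interval inside thus lay below the interval beside them, whereas that of the single genes held the value of their surroundings. These Poisson intervals cover counting error only and treat regions as independent and evenly scattered. The flanks of single clusters held from 0 to 49 regions, so the spread between loci is wider than the intervals show. The difference in density was not tested.

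**Figure D2:**
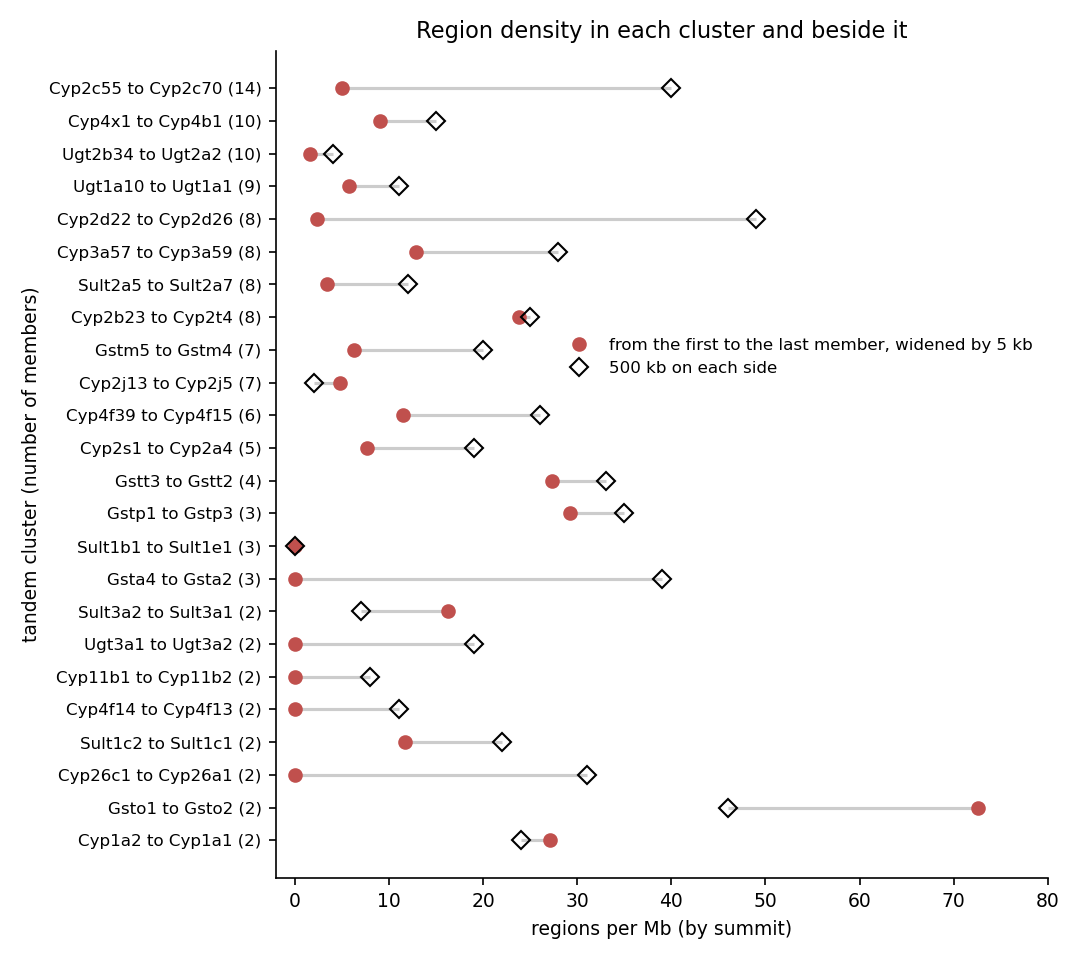
Regions per Mb (horizontal axis) within each of the 24 tandem clusters (red circles) and in the 500 kb on each side (open diamonds), with clusters named by their first and last gene and their number of members in parentheses. Flanking windows of neighbouring clusters can overlap here. The circle lies below the diamond in 19 clusters and above it in 4.

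Cluster by cluster, density was lower inside than beside the cluster in 19 of 24. It was higher in 4 (Gsto, Cyp1a, Sult3a and Cyp2j), and the cluster of Sult1b1, Sult1d1 and Sult1e1 had no region inside or beside it. Clusters ran from 16.4 to 1180 kb in extent. In a short one, few or no regions can be found even at the density of its flanks, so its place in these counts says little. In 9 clusters with 37 genes no gene had a region. Clusters of at least 4 genes numbered 13, and 23 of their 104 genes had a region (22.1%), against 6 of 25 genes in the smaller ones (24%). Without the Ugt1a array, where 8 genes count through 1 region, it was 15 of 95 (15.8%) in the larger clusters. The Cyp2d array on chromosome 15, which in mouse holds the relatives of a major human drug-metabolising P450, had no region at any of its 8 genes, although 49 regions lay in the 500 kb on each side. The Cyp2c array on chromosome 19 (39006940 to 40187286) was the largest, with 14 genes over 1180 kb. Only Cyp2c39, Cyp2c38 and Cyp2c69 of that array had a region, and 40 regions lay beside it. None of the 10 Ugt2 genes on chromosome 5, which glucuronidate steroids and bile acids, had a region, but only 4 regions lay beside that array.

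The other large arrays differed in how many genes carried a region. In the Cyp4a array with Cyp4x1 and Cyp4b1 on chromosome 4, whose Cyp4a enzymes hydroxylate fatty acids, 2 of 10 genes had one. The Cyp3a array had 2 of 8 and the Sult2a array, whose enzymes sulfate hydroxysteroids, 1 of 8. On chromosome 7 the array from Cyp2b23 to Cyp2t4 had 3 of 8 and was nearly as dense as its surroundings (23.8 against 25 per Mb), whereas the neighbouring array from Cyp2s1 to Cyp2a4 had none of 5. The Gstm array had 1 of 7, the Cyp2j array 1 of 7, the Cyp4f array from Cyp4f39 to Cyp4f15 1 of 6 and the Gstt array 1 of 4. In the Ugt1a array on chromosome 1, 8 of 9 genes counted. These genes have separate first exons and overlapping spans, and a single region at 88205250 to 88205679 (135 Control tags, 7.05-fold, FDR 0.7%) lay within all 8, between their starts and Ugt1a1, the gene of the bilirubin-conjugating enzyme. That region also overlapped Dnajb3.

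By fold, the 54 regions at the members lay near the middle of the list, and by tags and FDR they ranked somewhat higher. Their median fold was 12.4, with 12.2 over all listed regions, their median tag count was 126 against 103, and 39 of them (72.2%) had an FDR of at most 5%, against 56.9% of all regions. Regions at tandem genes had a median fold of 15.9 (interquartile range 9.99 to 23.5) and 107 tags, and regions at single genes had 10.9 (9.95 to 13.5) and 155 tags. The fold ranges overlapped, from 5.18 to 58.1 at tandem genes and from 4.62 to 34.5 at single genes. Several of the largest folds at tandem genes came from regions with few tags, such as Cyp2c69 (35.4-fold, 18 tags, FDR 86.1%) and Cyp4a32 (31.2-fold, 26 tags, FDR 28.2%). A fold from few tags has little precision. Cyp4a32 also held a second region, with 125 tags at 18.8-fold and an FDR of 0%. With an FDR of at most 5%, 25 tandem genes (19.4%) and 14 single genes (42.4%) still had a region, beside 35.1% of all protein-coding genes.

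**Figure D3:**
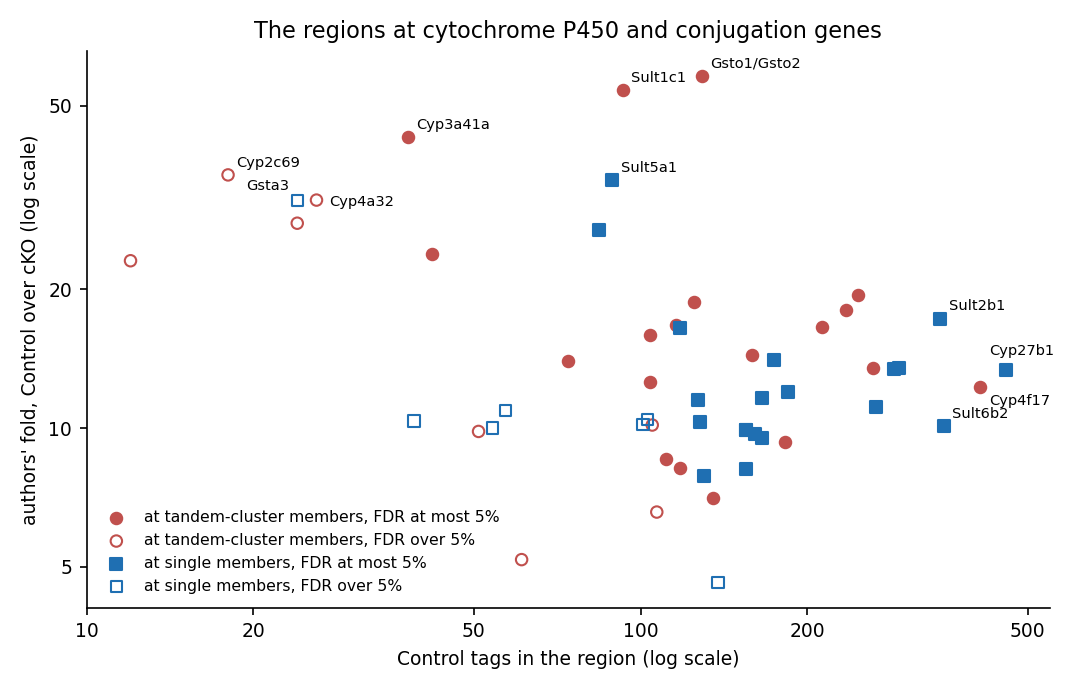
Control tags (horizontal axis, log scale) and the authors' fold (vertical axis, log scale) of the 54 regions, as red circles at tandem-cluster genes and blue squares at single genes. Filled symbols have an FDR of at most 5%. The largest folds, 54.1 at Sult1c1 and 58.1 at Gsto1 and Gsto2, had 93 and 129 tags, whereas most other folds over 25 came from regions with fewer than 50 tags.

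Genes for the metabolism of vitamins and hormones, most of them single genes, were found both with and without a region. Cyp26b1, which breaks down retinoic acid and is needed for normal limb and skeletal development, had 1 region inside its span near the end away from the start (chromosome 6, 84571523 to 84571968, 84 tags, 26.9-fold, FDR 0.01%). Its relatives Cyp26a1 and Cyp26c1, which form a pair on chromosome 19, had none, although 31 regions lay in the 500 kb on each side. Cyp24a1, the enzyme that inactivates vitamin D, had 3 regions, 1 within the gene and 1 on each side. The one within (chromosome 2, 170487021 to 170487496) had 166 tags, 9.53-fold and an FDR of 0%. The others had 185 tags at 11.99-fold and 103 tags at 10.4-fold, and the latter, with an FDR of 12.1%, lay in the neighbouring gene Pfdn4.

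Cyp27b1, which makes the active form of vitamin D, had 2 regions, both outside the gene and inside neighbours. One lay 2154 bp before its start, in Mettl1 (166 tags, 11.6-fold), and one 2153 bp beyond its end, in Marchf9 (chromosome 10, 127057037 to 127057793). The latter, with 457 tags at 13.4-fold, had the most tags of the 54. Cyp2r1 and Cyp27a1, which hydroxylate vitamin D in earlier steps, had no region. Of the steroid-forming genes, Cyp11a1, which cuts the side chain of cholesterol, had a region 1748 bp before its start (174 tags, 14.1-fold, FDR 0%). Cyp19a1, the aromatase that makes oestrogens, had 1 within its span (118 tags, 16.5-fold, FDR 0.03%). None was listed at the tandem pair Cyp11b1 and Cyp11b2 or at the single genes Cyp17a1 and Cyp21a1. Among the genes of cholesterol and bile acid breakdown, Cyp7b1 had 2 regions in its span (10.3-fold with 128 tags, and 10-fold with 54 tags and an FDR of 68.4%). Cyp7a1, Cyp8b1, Cyp39a1 and Cyp46a1 had none.

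All 6 single Sult genes had a region, against 3 of 15 tandem ones. Of the Cyp genes, 10 of 24 single ones (41.7%) and 13 of 74 tandem ones (17.6%) had one. The share over all protein-coding genes was 47.4%. The single Sult genes are few and were picked out after their values were seen. Sult2b1, which sulfates cholesterol, had 4 regions, the most of any member. They had 348, 155, 130 and 155 tags at 17.3-, 8.16-, 7.88- and 9.89-fold, all with an FDR of at most 0.62%. Of these, 1 lay within its span and 2 overlapped Fam83e. Sult5a1 had 1 region just outside the gene (34.5-fold, 89 tags, FDR 0%), and Sult6b1 and Sult6b2 had 1 each in their spans at 9.88- and 10.1-fold. Sult1a1, the main sulfotransferase for simple phenols, had 2 in its span, but their FDR values were 21.1% and 100%. Sult4a1, a member known from brain, had 1 just outside its span at 9.72-fold (161 tags).

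The strongest region by fold lay in the omega-class pair Gsto1 and Gsto2, glutathione transferases with reductase activity. Gsto1 held 2 regions in its span, at 47861446 to 47861928 of chromosome 19 (159 tags, 14.4-fold) and at 47862079 to 47862609 (129 tags, 58.1-fold), both with an FDR of 0%. Both also lay within 5 kb of Gsto2, which had a further region of its own with 61 tags at 5.18-fold and an FDR of 100%. Sult1c1 followed with 54.1-fold and 93 tags (chromosome 17, 53984905 to 53985363, FDR 0%), within its span. Among single Cyp genes, Cyp2c23, an arachidonic acid epoxygenase that lies apart from the Cyp2c array, had 2 regions in its span (13.5- and 11.5-fold, 293 and 127 tags). Cyp2u1, a fatty acid hydroxylase, had 1 region 554 bp outside its span (13.4-fold, 287 tags) and 1 within it (10.4-fold, 39 tags, FDR 100%). Cyp3a13, which stands apart from the Cyp3a array, had 1 (10.9-fold, FDR 33.0%). Per kb of the widened span, the genes with at least 3 regions had 0.124 (Cyp24a1), 0.101 (Sult2b1), 0.097 (Gsto2) and 0.013 (Cyp2c39) regions.

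The other tandem genes with a region mostly had a single one. Cyp4f17 held the tandem region with the most tags (411 tags, 12.3-fold, FDR 0%). Cyp2f2, the P450 of airway club cells that activates naphthalene, had 247 tags at 19.4-fold in its span, and its neighbour Cyp2t4 had 213 tags at 16.6-fold in its span and 111 tags at 8.57-fold beside it, the latter in Egln2. Cyp4x1 had 235 tags at 18.0-fold just outside its span. Cyp2c39, which spans 222 kb in this annotation, held 3 regions, of which the one with the most tags (263) was at 13.5-fold, and 2 of them also counted for Cyp2c38. Cyp1a1, which oxidises polycyclic aromatic compounds and is induced through the aryl hydrocarbon receptor, had 118 tags at 8.19-fold, 3417 bp outside its span. Among conjugating enzymes, Gstt2 had 2 (15.9-fold with 104 tags, and 9.83-fold with 51 tags and an FDR of 61.9%). Gstm2 had 1 at 13.96-fold, and Gstp2 had 1 at 6.57-fold with an FDR of 34.9%. Cyp2j13 had 1 at 16.7-fold. Sult3a2 had 1 at 23.1-fold with only 12 tags and an FDR of 100%. Sult2a4 had 1 at 10.15-fold with 105 tags and an FDR of 15.0%. Of the remaining single genes, Cyp2ab1 had 266 tags at 11.1-fold, and Gsta3, which lies apart from the other Gsta genes, had 24 tags at 31.2-fold with an FDR of 24.0%.

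Of the 54 regions, 32 overlapped the span of a member and 22 lay only beside one, 6 of the latter in another protein-coding gene. A region lay within the span of 33 members (20.4%, beside 38.2% of all protein-coding genes), and 13 members (8.02%, beside 9.64%) had one within 1 kb of either end of the span. These were Cyp26b1, Cyp2a22, Cyp2ab1, Cyp2t4, Cyp2u1, Cyp3a41a, Cyp3a41b, Cyp4x1, Gstt2, Sult1a1, Sult3a2, Sult4a1 and Sult5a1. Of these 13, 7 were tandem genes (5.43%) and 6 single genes (18.2%). RefSeq promoter windows, reaching from 250 bases before to 50 after a start, were matched by symbol for 132 of the 162 members, with 153 windows. No region overlapped any of them, and only 0.823% of the 21263 windows of all protein-coding genes were overlapped, so this count says little about the members. Where a start was known for the gene, the nearest one lay at a median of 6.30 kb from the region (40 regions), and 2 regions (5%) lay within 1 kb of it. Over the regions of all protein-coding genes the median was 21.4 kb and 3.80% lay within 1 kb. Gene length was not matched in this comparison.

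Those 2 starts, of Cyp2a22 and Sult5a1, and the starts of a pair of near-identical copies, Cyp3a41a and Cyp3a41b, are shown to set their CpG content beside that of Cyp2r1, a single gene with no region. Each is the 250 bases before the start, from RefSeq in GRCm38.p6, 5′ to 3′ on the gene's strand (the minus strand in each case), with CpG in capitals.
Cyp2a22 (chr7:26939387-26939636): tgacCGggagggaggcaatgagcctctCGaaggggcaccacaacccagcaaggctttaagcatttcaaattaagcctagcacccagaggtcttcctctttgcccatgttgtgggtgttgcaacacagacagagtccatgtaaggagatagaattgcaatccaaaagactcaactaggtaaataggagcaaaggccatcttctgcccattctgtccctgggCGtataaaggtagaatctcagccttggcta
Sult5a1 (chr8:123158281-123158530): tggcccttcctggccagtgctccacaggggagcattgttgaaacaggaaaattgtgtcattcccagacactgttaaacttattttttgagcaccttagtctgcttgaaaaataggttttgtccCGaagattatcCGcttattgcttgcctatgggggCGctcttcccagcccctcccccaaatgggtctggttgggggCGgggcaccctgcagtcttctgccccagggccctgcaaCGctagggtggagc
Cyp3a41a (chr5:145720137-145720386): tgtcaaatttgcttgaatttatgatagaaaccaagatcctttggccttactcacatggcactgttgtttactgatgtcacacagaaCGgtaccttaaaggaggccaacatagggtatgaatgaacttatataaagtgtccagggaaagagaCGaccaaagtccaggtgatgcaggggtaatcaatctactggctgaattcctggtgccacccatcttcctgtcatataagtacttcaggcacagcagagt
Cyp3a41b (chr5:145584731-145584980): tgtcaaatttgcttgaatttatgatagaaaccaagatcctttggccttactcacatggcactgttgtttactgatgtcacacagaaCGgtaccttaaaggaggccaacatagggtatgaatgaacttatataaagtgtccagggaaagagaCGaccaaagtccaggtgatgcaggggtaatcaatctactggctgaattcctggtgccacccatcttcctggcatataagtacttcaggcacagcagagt
Cyp2r1 (chr7:114562973-114563222): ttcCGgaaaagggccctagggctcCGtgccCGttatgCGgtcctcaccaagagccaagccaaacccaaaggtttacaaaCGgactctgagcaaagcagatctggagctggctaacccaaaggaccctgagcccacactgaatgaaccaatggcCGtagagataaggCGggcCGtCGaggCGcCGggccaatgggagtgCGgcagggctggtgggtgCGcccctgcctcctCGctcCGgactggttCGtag

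These stretches hold 3, 5, 2, 2 and 16 CpG. The Cyp2a22 region began 234 bp inside the gene from this start (26938666 to 26939152, 182 tags, 9.33-fold, FDR 0.02%), and the Sult5a1 region lay 831 bp before its start (123159111 to 123159526). The Cyp3a41 copies differ by 1 of these 250 bases (T222G, from Cyp3a41a to Cyp3a41b, counted from 1 at the 5′ end). Each copy had 1 region just beyond its far end, at nearly the same distance from the start, 26321 bp for Cyp3a41a (145693519 to 145693815, 38 tags, 42.9-fold, FDR 0.33%) and 26221 bp for Cyp3a41b (145558094 to 145558509, 42 tags, 23.9-fold, FDR 4.47%). How reads that match several places were treated is not given in the sources used here, and its part in the values of such copies was not tested.

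The starts of these genes were poor in CpG, the sequence that MBD2 reads when methylated. Over the 300-base windows, the 132 members had a median of 2 CpG (interquartile range 1 to 5), and 39 of them (29.5%) had at most 1. All protein-coding genes with a window had a median of 13 (4 to 24), and 11.9% had at most 1, although only 17492 of 21887 had a window. At least 10 CpG were found for 18 members (13.6%) and for 57.6% of all genes with a window. Of the 108 tandem genes with a window, a region was listed for 3 of the 10 with at least 10 CpG and for 22 of the 98 with fewer. Of the 24 single genes with a window, a region was listed for 1 of the 8 with at least 10 CpG (Sult2b1) and for 11 of the 16 with fewer. The medians were 3 CpG with a region and 2 without among tandem genes, and 3.5 and 13 among single genes, so the order was opposite. The single-gene values are a description of these 24 genes only, since a window was found for fewer than 80% of the 33, and a check over the single genes is void. CpG content of the clusters themselves was not analysed here, and its part in the tandem and single split was not tested.

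**Figure D4:**
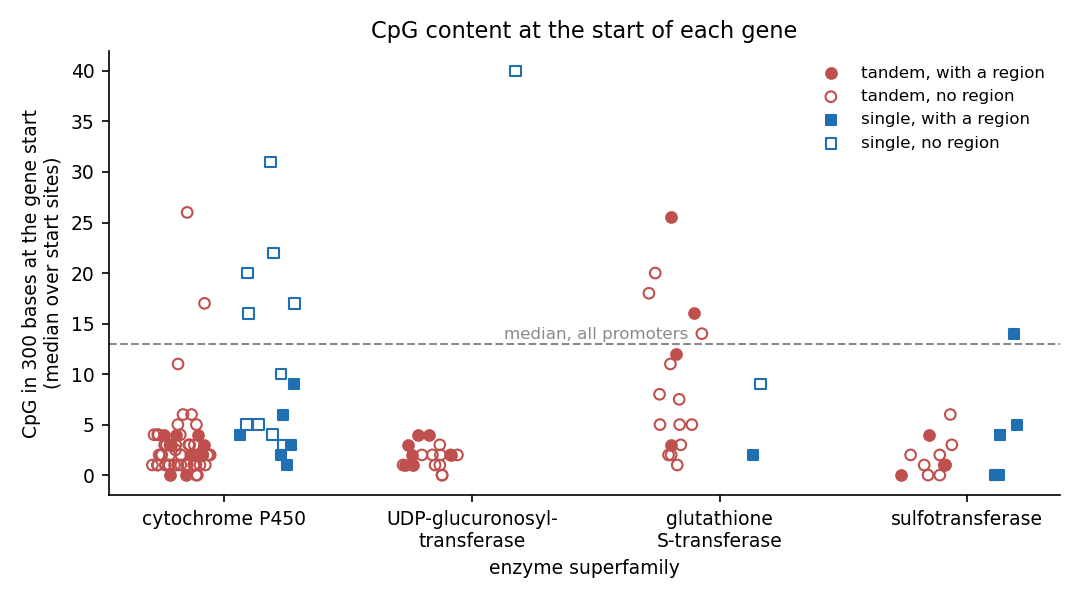
Number of CpG in the 300 bases at the start (vertical axis, median where a gene has several starts) for each of the 132 members with a window, by enzyme superfamily, with tandem-cluster genes as red circles and single genes as blue squares, filled where a region lay in the gene or within 5 kb. Most points lie far below the dashed line at 13, the median of all protein-coding genes with a window.

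Similarity between copies was measured as the identity of a member's window with the closest window of another member after global alignment. It reached 90% for 13 tandem genes, all of them Cyp genes, and for no single gene with a window. A region was listed for 3 of these 13 (23.1%) and for 22 of the 95 tandem genes below 90% (23.2%). Of these 22, 7 were Ugt1a genes with the same region, and without the Ugt1a array the latter share was 15 of 87 (17.2%). Genes below 90% include starts with up to 87.3% identity (Ugt2b37 and Ugt2b38). Similarity of the remaining gene sequence was not analysed here, and its part in the split was not tested.

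Among other protein-coding genes, too, the share was lower in neighbours with like symbols than in the rest. The same split was made for other protein-coding genes with numbered symbols, taking neighbours whose symbols share the letters before the first digit. Of 4567 genes in such groups, 21.9% had a region, against 59.1% of 12594 genes outside them. Genes in these groups are short, with a median span of 5.49 kb, and all protein-coding genes weighted to their lengths gave 35.1%. Without olfactory and vomeronasal receptor genes, a choice made after the data were seen, the share was 29.6% of 3131, beside a length-weighted 39.4%. For the tandem Cyp, Ugt, Gst and Sult genes the corresponding values were 22.5% and 47.8%. Their density of 6.53 regions per Mb was below the 14.1 per Mb (13.4 to 14.9) of the groups formed by symbol, but this difference was not tested.

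Of 44 genes that work with these enzymes, 23 had a region (52.3%), with 58.1% for all protein-coding genes weighted to their lengths. With an FDR of at most 5% it was 16 of the 44, beside 35.1% of all protein-coding genes, a share not weighted to length. The lists below are short and no length-weighted share was computed for each. Median spans were 22.9 to 46.5 kb in the lists other than export and 108 kb in export. Of all protein-coding genes of 20 to 50 kb and over 100 kb, 56.8% and 84.9% had a region. The counts per list are a description only. Among receptors and regulators, which include activators and inhibitors of detoxification genes, 3 of 9 had one. Only Hnf4a, a liver transcription factor, had one with an FDR of at most 5%, and the regions at Nfe2l2 (66 tags) and Keap1 (15 tags), whose product holds the Nfe2l2 protein in check, had an FDR of 100% and 95.3%. None was listed at Ahr, the receptor for dioxin-like compounds, or at Nr1i2, the pregnane X receptor. The electron donors of P450 enzymes had 4 of 5, but only Por, the P450 reductase, and Fdx1 had one with an FDR of at most 5%, in Por 1 of its 4 regions. Genes that supply cofactors had 6 of 8, all 6 also with an FDR of at most 5%. Papss1 and Papss2 make the activated sulfate that sulfotransferases use, Papss2 being needed for cartilage growth, and they had 5 and 3 regions, of which 2 and 1 had such an FDR. Gclm, a subunit of the enzyme that starts glutathione synthesis, had a region at 38.1-fold with 219 tags and an FDR of 0%. Other enzymes had 6 of 15 (4 with such an FDR), among them Mgst3, a membrane glutathione transferase (20.8-fold, 396 tags, FDR 0%). Export pumps had 4 of 7 (3 with such an FDR), and Abcc4, with a span of 225 kb, had 21 regions, of which 14 had such an FDR.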

How the data were processed

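DNA captured with MBD2 was sequenced from 1 Control and 1 Uhrf1 cKO culture. Per the file headers, the authors called regions with MACS 1.4.2, Control against cKO, at a p limit of 1e-10, a band width of 300 bp, at most 1 tag per position, the larger library scaled to the smaller and local background over 1000 and 10000 bp. The modelled fragment length (d) was 58 bp with a tag size of 55 bp, although DNA was sheared to about 300 bp. Coordinates are in mm10, which the submitters' processing notes name. The aligner is not given in the sources used here.

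The deposited tags are an unscaled count from the Control library. The deposited score is a multiple of the negative log10 of the caller's Poisson p, with a score of 150 at a p of 1e-15. It served only for stricter limits. The deposited fold is a ratio by the caller, and the deposited FDR is a percent value. cKO tags per region were not analysed here.

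Gene spans, without exons or strand, came from the RefSeq table of GRCm38.p6, the assembly named mm10, so exon, intron and UTR classes were not analysed here. A gene had a region where at least 1 bp overlapped its span widened by 5 kb. The genes named are those with a region within 1 kb of an end, the 10 with the most regions, the 10 with the largest fold, the densest with at least 3 regions, clusters of at least 4 genes, and a list of vitamin, steroid and bile acid genes. Other members with a region, such as Cyp1a1, Gstp2, Sult6b1, Sult6b2 and Cyp3a13, were named after their values were seen. Members, lists and rules were chosen with earlier results of these data known. Overlap and cluster steps were tested on simulated data. Alternatives were other windows, stricter p and FDR limits, joined regions and other cluster rules. Biopython 1.88, SciPy 1.17.1, Matplotlib 3.10.9, pandas 2.3.3, NumPy 2.4.6 and Python 3.11.15 were used.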

Additional observations from a re-analysis of the deposited data

How the results depend on the processing

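The single genes had the higher share under each of the 12 alternatives, with a difference from 16.3 to 34.0 percentage points. With gene spans alone, 20.4% of the members and 33.3% of the single genes had a region, and the distinct regions fell from 54 to 32. With a window of 10 kb, 38.3% of the members and 32.6% of the tandem genes had one. The density ran from 4.59 to 7.49 regions per Mb at tandem genes and from 14.4 to 20.7 at single genes. In all, 70 of 75 recomputed values stayed within the counting interval of the value in the text or, for the number of regions, within 1.5 times it. This is a loose criterion, since the interval of the single genes runs from 35.2% to 67.5%. Placing regions by their summit and forming clusters within a family number returned the same values as in the text, so these settings add nothing to the count. Without the Ugt1a genes, an alternative added after the data were seen, 24.8% of the members and 17.5% of the tandem genes had a region.

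No paired analysis was possible because each genotype had 1 library. Regions with few tags have imprecise folds, and 4 of the 54 had an FDR of 100%. A gene without a region cannot be told apart from one that was not captured or whose reads could not be placed.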
